A study of Mus musculus with 2 samples.

Results

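The genes described here are 10 immediate early response genes, Fos, Fosb, Jun, Junb, Egr1, Ier2, Ier3, Atf3, Nfkbia and Dusp1, out of 12393 genes that had a probe set of their own on the array. They were chosen by name as a readout of recent stimulation or handling, and all of their 14 probe sets were taken, 1 for each of 8 genes, 2 for Jun and 4 for Nfkbia. The tissue was mouse uterus between implantation sites, on day 8 of pregnancy, from females aged 4 months on a mixed C57Bl/6J and OLA129 background. The groups were control and Cbs null, homozygous for a deficiency of cystathionine beta-synthase, the enzyme that commits homocysteine to transsulfuration. Each group was 1 Affymetrix array, and the labels give neither the kind of Cbs allele nor whether 1 female or several contributed to a sample. The comparison thus describes 2 arrays, without replicates or p-values.

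Immediate early genes are transcribed within minutes of a stimulus, from pre-existing factors and without new protein synthesis, and their mRNAs are short-lived. Growth factors, steroid hormones, cytokines, stretch, ischaemia and the dissection of a tissue all induce them, chiefly through MAP kinases that act on serum response factor and CREB, or through NF-kappaB. The genes fall into transcription factors that form AP-1 dimers (Fos, Fosb, Jun, Junb), the zinc finger factor Egr1, the stress factor Atf3, the small proteins Ier2 and Ier3, and feedback inhibitors. Dusp1 encodes a phosphatase that switches off MAP kinases, and Nfkbia encodes the inhibitor that holds NF-kappaB in the cytoplasm. In uterus, Fos and Egr1 are known as early targets of estrogen.

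Signals are the deposited intensities on a linear scale. A floor of 43.2 signal units, the 40th percentile of both arrays together, was set under weak signals, and a gene counted as measured if 1 array or both exceeded that floor. A log2 ratio is that of Cbs null over control, so a positive value means a higher signal on the Cbs null array. The error of a ratio within these arrays was estimated from genes with several probe sets. Its SD was 0.15 where the signal was at least 4 times the floor and 0.26 below that, which leaves out the variation between females. It also leaves out differences in RNA preparation, labelling or hybridization that the probe sets of a gene share.

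The promoters of 8 of the 10 genes were matched in a RefSeq table (build GRCm38.p6), which held no entry for Egr1 or Ier2. The 250 bases before the transcription start are shown for 5 genes: Fos and Dusp1, which had the highest ratios, Atf3, which had the lowest, and Nfkbia and Ier3, which carried an NF-kappaB motif. Capitals mark the CRE core TGACG, bound by CREB and ATF factors, on either strand, the full CRE TGACGTCA, which contains that core on both strands, the NF-kappaB motif GGAATTTCC on either strand, and the TATA box TATAAA on the coding strand. The regions are chr12:85473640-85473889 for Fos and chr17:35821463-35821712 for Ier3 on the plus strand and, on the minus strand, chr17:26508473-26508722 for Dusp1, chr12:55492648-55492897 for Nfkbia and chr1:191183334-191183583 for Atf3.
Fos: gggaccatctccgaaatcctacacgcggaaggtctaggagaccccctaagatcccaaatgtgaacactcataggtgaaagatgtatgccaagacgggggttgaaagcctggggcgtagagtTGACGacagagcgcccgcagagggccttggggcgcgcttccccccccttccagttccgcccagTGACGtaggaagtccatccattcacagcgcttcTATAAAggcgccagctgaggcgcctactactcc
Dusp1: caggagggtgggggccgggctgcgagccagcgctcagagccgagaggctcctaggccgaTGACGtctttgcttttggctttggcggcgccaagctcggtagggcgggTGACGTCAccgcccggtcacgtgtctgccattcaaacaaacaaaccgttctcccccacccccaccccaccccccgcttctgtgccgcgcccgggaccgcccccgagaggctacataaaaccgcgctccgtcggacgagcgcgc
Nfkbia: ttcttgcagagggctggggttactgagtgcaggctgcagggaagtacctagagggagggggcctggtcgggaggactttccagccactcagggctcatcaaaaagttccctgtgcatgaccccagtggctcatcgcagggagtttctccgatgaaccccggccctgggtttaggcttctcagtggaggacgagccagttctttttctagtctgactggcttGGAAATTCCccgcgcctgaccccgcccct
Ier3: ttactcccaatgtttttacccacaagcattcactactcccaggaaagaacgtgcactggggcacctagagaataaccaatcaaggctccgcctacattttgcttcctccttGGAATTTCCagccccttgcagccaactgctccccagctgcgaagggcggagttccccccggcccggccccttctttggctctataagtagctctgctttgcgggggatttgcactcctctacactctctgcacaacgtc
Atf3: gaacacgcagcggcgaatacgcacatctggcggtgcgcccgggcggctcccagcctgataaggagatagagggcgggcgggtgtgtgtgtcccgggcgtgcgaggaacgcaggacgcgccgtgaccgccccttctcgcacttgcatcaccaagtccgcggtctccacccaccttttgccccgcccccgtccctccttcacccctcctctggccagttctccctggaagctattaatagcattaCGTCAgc

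The CRE core stood in the promoters of Fos, Fosb, Junb, Dusp1 and Atf3, 5 of the 8, and in 17.8% of all 32851 promoters of the same length. In Fos it began 129 and 66 bases before the start, with the TATA box 33 bases before it. In Dusp1 a core lay 191 bases before the start and a full CRE 143 bases before it. The full CRE was found in 1 of the 8 promoters and in 1.55% of all promoters. In Atf3 the core lay on the opposite strand, 7 to 3 bases before the start. The NF-kappaB letters GGAATTTCC stood in Nfkbia, on the opposite strand, 29 to 21 bases before the start, and in Ier3, 139 to 131 bases before it. That was 2 of the 8 promoters against 0.286% of all. No other spelling of the NF-kappaB motif was searched, so these shares hold for those letters only. The TATA box letters were found in Fos alone of the 8, against 7.59% of all promoters. These matches describe letters in the window and are not shown to be sites. The core was present both in the gene with the highest ratio, Dusp1, and in the gene with the lowest, Atf3.

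Dusp1, Fos and Ier2 were about 1.5-fold higher on the Cbs null array, Ier3 was higher by less, Atf3 was lower, and the other measured immediate early genes differed little. Of the 10 genes, 9 were measured, all of them above the floor on both arrays, and Fosb was not. Of the 9, 4 were higher by more than 2 technical SDs and Atf3 was lower by more than that. By their brightest probe sets, Nfkbia, Junb, Egr1 and Jun lay within 2 technical SDs, so their direction is not settled. Passing that limit describes these 2 arrays only and settles no difference between the groups. The share of all measured genes past 2 technical SDs was not computed. Log2 ratios of the 7942 genes whose signal passed the floor in each sample had an SD of 0.32. The technical SDs were 0.15 and 0.26, so passing that limit is not by itself a trait of the members. Of the 9, 7 had a ratio above 0 and 2 below, beside 53.3% above 0 among all 8407 measured genes. Their median log2 ratio was 0.23, against 0.02 over all measured genes. Dusp1 and Fos were at least 1.5-fold higher, 2 of 9 or 22.2%, where the share among all measured genes was 3.59% and 3.24% among the 7942 that exceeded the floor on each array. At a log2 ratio of 0.32 or more, Ier2 joined them, 3 of 9 where 12.2% of all measured genes were that much higher, and Atf3 was the 1 member lower by as much, where 11% were. No member was 2-fold apart, a size that 1.51% of measured genes passed in either direction. In a piece of whole tissue, more cells of a type and more RNA per cell cannot be told apart.

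**Figure D1:**
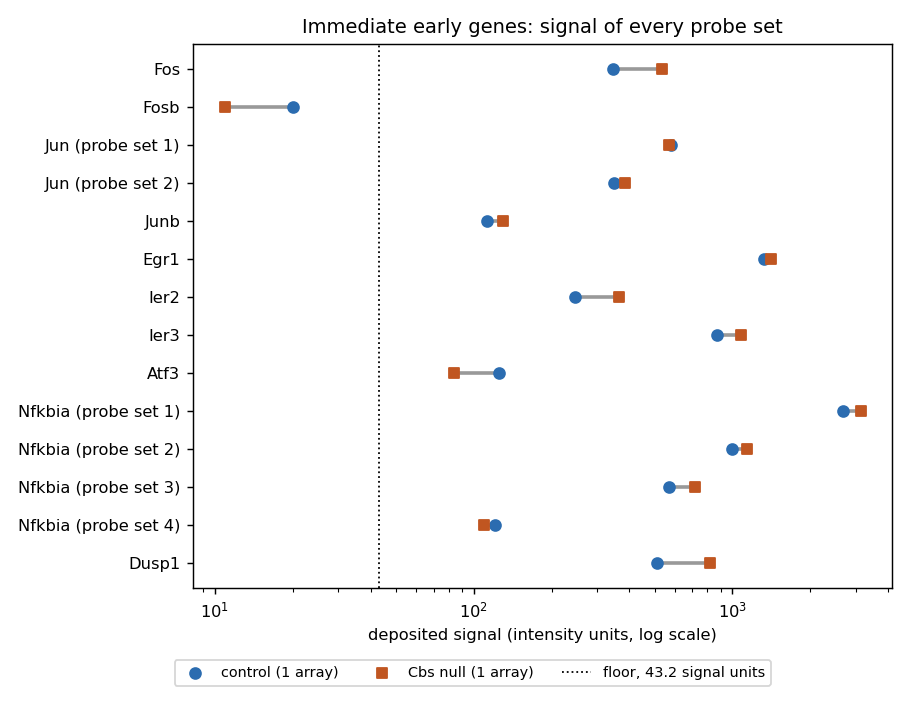
Deposited signal of each of the 14 probe sets of the 10 genes on the control array (circles) and the Cbs null array (squares), on a log axis, with the floor of 43.2 as a dotted line; each point is 1 array and there are no error bars. The widest gaps with the Cbs null array higher are those of Dusp1, Fos and Ier2, Atf3 goes the other way, and Fosb lies below the floor on both arrays. Positions of different probe sets cannot be compared with each other.

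Among the AP-1 factors, only the ratio of Fos stood clear of its within-array error. Fos, the inducible partner that makes the strong dimers with Jun proteins, read 344.4 on the control array and 532.7 on the Cbs null array, 1.55-fold higher at a log2 ratio of 0.63. It rests on 1 probe set. Jun, the core subunit of AP-1, read 581.0 and 570.6 in its brighter probe set, a log2 ratio of -0.03. Its second probe set read 349.4 and 385.9, a log2 ratio of 0.14, so the pair differed in sign and both lay within the error of 0. Junb, a Jun relative that forms weaker transactivating dimers, read 113.0 and 130.3, a log2 ratio of 0.21, smaller than the error of 0.26 at that signal. Fosb, the Fos paralog, read 20 and 10.9, below the floor in both samples, so no ratio is given.

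Dusp1 had the highest ratio of the members. Its signal was 512.5 on the control array and 818.8 on the Cbs null array, 1.60-fold higher at a log2 ratio of 0.68. Nfkbia, the other feedback inhibitor, read 2669.1 and 3129.4 in its brightest probe set, 1.17-fold higher at 0.23. Its next probe sets read 998.7 and 1137.2 (0.19) and 569.9 and 719.0 (0.34). The latter ratio lay 2.3 technical SDs above 0, unlike that of the brightest probe set, at 1.57. The weakest read 120.8 and 109.6 (-0.14). The mean over the 4 probe sets was 0.15 with an SD of 0.21 over probe sets, so 3 were modestly higher and the spread among them was larger than their mean.

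Ier2 and Ier3, small nuclear and survival-associated proteins named for their rapid induction, were both higher. Ier2 read 246.6 on the control array and 363.0 on the Cbs null array, 1.47-fold higher at a log2 ratio of 0.56, just under the size rule. Ier3 read 870.7 and 1076.4, 1.24-fold higher at 0.31. Egr1, the zinc finger factor that answers most growth signals, hardly differed at 1325.2 and 1412.6, 1.07-fold higher at 0.09. Atf3, a factor of the ATF family that is induced by cell stress, went the opposite way at 124.7 and 83.9, 1.49-fold lower at -0.57.

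By size of the ratio, the order was Dusp1, Fos, Ier2, Ier3, Nfkbia, Junb, Egr1, Jun and Atf3. The gaps from Dusp1 to Fos and from Fos to Ier2 were 0.05 and 0.07 on the log2 scale, below the SD of 0.21 expected for a difference between 2 such ratios. Those 3 genes are therefore not separated in that order. Between Ier2 and Ier3 the gap was 0.25, a little above that SD. From Ier3 down to Jun no gap exceeded 0.12, so neighbours there are not separated either. Atf3 stood 0.55 below Jun, where the SD of the difference is 0.295. Of the members' 13 probe sets above the floor on both arrays, 10 were higher and 3 lower on the Cbs null array. The lower ones were those of Atf3, the brighter of Jun and the weakest of Nfkbia. These counts take Nfkbia 4 times and Jun 2 times, so they are not counts of genes. The share over all probe sets was not computed.

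**Figure D2:**
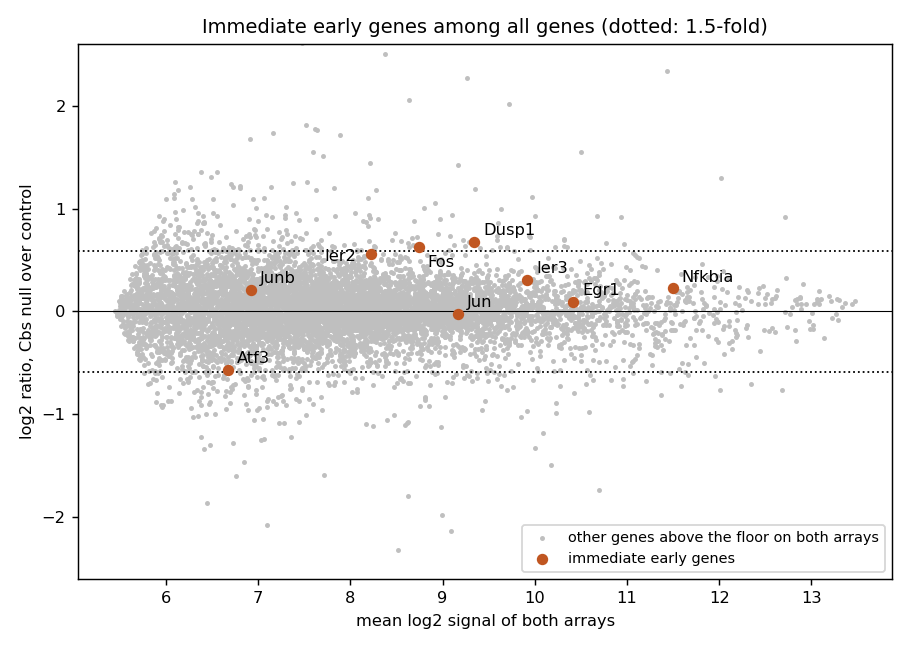
Log2 ratio of Cbs null over control against the mean log2 signal of both arrays, for the 7942 genes that exceeded the floor on each array (grey) and the 9 measured immediate early genes (orange, named); dotted lines mark 1.5-fold, and 5 grey genes lie outside the plotted range. Dusp1 and Fos lie above the upper line, Ier2 just below it, and Atf3 just inside the lower line.

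No relative of these factors was higher to the extent of Fos. Of 17 AP-1 and ATF relatives listed, 15 were on the array and 10 were measured. Among these, 6 were higher and 4 lower, beside 53.3% above 0 among all measured genes. None of the relatives was at least 1.5-fold apart, beside 6.97% of all. Their median log2 ratio was 0.02. Jund, the constitutive Jun paralog, read 1788.8 and 1793.1, a log2 ratio of 0.00. Atf4, the effector of the integrated stress response, read 677.5 and 604.2, a ratio of -0.17, with a second probe set at 260.7 and 260.4. The Fos paralogs Fosl1 (1.9 and 13.5) and Fosl2 (35.6 and 20.1), chosen after their values were known, lay below the floor in both samples, as Fosb did. Jdp2, a repressor of AP-1 chosen in the same way, read 215.4 and 145.1 at -0.57, close to the ratio of Atf3.

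Of 13 EGR, NR4A and KLF factors, all were on the array and 10 were measured, with a median of 0.00. Among these, 5 were higher and 5 lower, beside 53.3% above 0 among all measured genes. None was at least 1.5-fold apart, beside 6.97% of all. Klf9, a factor induced by steroid hormones that acts with the progesterone receptor, read 2719.4 and 3487.5 at 0.36, and all 6 of its probe sets above the floor were higher, from 0.14 to 0.45. Klf4 was level at 1064.2 and 1067.5, with -0.08 in its other probe set. Nr4a1, an orphan nuclear receptor often induced along with Fos and Egr1 and chosen after its value was known, was lower at 278.8 and 199.9, a ratio of -0.48. Nab2, a corepressor of EGR factors chosen likewise, stood at -0.35.

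Other early response genes went both ways. Of 31 listed, 26 were measured, with a median of 0.15. Among these, 16 were higher and 10 lower, beside 53.3% above 0 among all measured genes. Btg2, an antiproliferative gene, was the 1 gene at least 1.5-fold higher, reading 484.4 and 754.9 at 0.64, with 0.31 in its second probe set. Ptgs2, the inducible cyclooxygenase, read 86.0 on the control array and only 28.3, less than the floor, on the other, at least 1.99-fold lower. Gadd45g, a stress and growth arrest gene, read 278.1 and 182.7 at -0.61. Of genes chosen after their values were known, the kinase gene Sgk1 (856.4 and 586.1, a ratio of -0.55) and the matricellular gene Ccn1 (298.2 and 213.9, -0.48) were lower. Chosen likewise, the growth arrest gene Gadd45a (0.48), Id2 (0.45), Phlda1 (0.42), Socs3, the feedback inhibitor of cytokine receptors (0.42), and Ccn2, a relative of Ccn1 (0.29), were higher. The relatives of Id2, Id1 (-0.36) and Id3 (-0.33), chosen in the same way, were lower. The mRNA decay factor gene Zfp36 stood at -0.08 and its relatives Zfp36l1 and Zfp36l2 at 0.21 and 0.42, all chosen after their values were known. On this list 3.85% of measured genes were at least 1.5-fold higher, near the 3.59% of all measured genes, and 7.69% (2 of 26) were at least 1.5-fold lower, beside 3.38% of all.

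The relatives of Dusp1 went both ways. Of 10 other DUSP phosphatase genes, 8 were on the array and 7 measured, with 3 higher and 4 lower and a median of -0.35. Among all measured genes, 53.3% had a ratio above 0 and 6.97% were at least 1.5-fold apart. Dusp7 was the 1 member at least 1.5-fold apart, at 90.5 and 60.2 (-0.59), but its other measured probe set read 67.2 and 71.3 (0.09). Dusp6, the phosphatase induced by ERK and chosen after its value was known, stood at 0.17. Dusp3, the brightest on this list and chosen likewise, was lower at 407.4 and 304.9 (-0.42). The family median rests mostly on weak signals and was 0.17 with the floor at the 60th percentile of signal, so no direction is given for the family.

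In the NF-kappaB pathway, where Nfkbia is the feedback arm, 11 of 19 listed genes were measured, with a median of 0.15. Of the 11, 9 were higher and 2 lower, beside 53.3% above 0 among all measured genes. Only 5 of the 11 lay past 1 technical SD, both lower genes among them, so most of the 9 lay within it. The share of all measured genes past 1 technical SD was not computed. None was at least 1.5-fold apart, beside 6.97% of all. Rela, the main activating subunit, read 577.2 and 588.7 at 0.03. Ikbkb, the kinase that triggers loss of the inhibitor, read 379.7 and 445.9 at 0.23, but its other measured probe set read 79.4 and 81.2 (0.03). Nfkb2, chosen after its value was known, went the other way at -0.54. Of target genes on that list, all chosen after their values were known, the survival gene Birc3 (150.0 and 191.1, a ratio of 0.35), the adhesion gene Icam1 (123.2 and 137.8, 0.16), Nfkbiz (279.4 and 299.7, 0.10) and Bcl3 (-0.48) were measured. The target genes Tnfaip3 (15.4 and 28.4), Ccl2 (20.6 and 10.2), Cxcl1 (3.0 and 19.0) and Il6 (4.2 and 10.6), also chosen after their values were known, were below the floor in both samples.

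Upstream of the members, 13 of 21 kinase and SRF or CREB factor genes were measured, with a median of -0.08. Among these, 5 were higher and 8 lower, beside 53.3% above 0 among all measured genes. None was 1.5-fold apart, beside 6.97% of all. Rps6ka3, a kinase that activates CREB, read 700.5 and 669.5 (-0.07), but its other measured probe set read 80.9 and 89.8 (0.15). Elk4, a partner of serum response factor, read 563.3 and 618.0 (0.13). Downstream, 7 of 11 listed AP-1 target genes were measured, with a median of -0.22. Among these, 3 were higher and 4 lower, beside the same 53.3% above 0. Timp1, the metalloproteinase inhibitor, read 191.5 and 69.3, 2.76-fold lower. Ccnd1, which encodes cyclin D1, read 925.8 and 614.4, 1.51-fold lower, and its other probe sets stood at -0.85 and -0.27. These were 2 of 7 genes at least 1.5-fold lower, beside 3.38% of all measured genes.

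Heat shock genes, another group that responds to handling and stress, mostly had lower signals on the Cbs null array, where Dusp1, Fos and Ier2 had higher ones. All 9 listed were measured, with a median log2 ratio of -0.35. Among these, 7 were lower and 2 higher, beside 53.3% above 0 among all measured genes. Of the 9, 6 lay past 1 technical SD, a share not computed over all genes. Of genes chosen after their values were known, Hspa8 was among the 6, higher at 0.15. The lower genes Hsp90aa1 (-0.11) and Hspd1 (-0.08), chosen likewise, lay within 1 technical SD. Hspb1, a small chaperone, read 3961.0 and 2402.5, 1.65-fold lower, and its second probe set stood at -0.97. Hspa1b, the stress-inducible HSP70, read 1919.4 and 1247.3, 1.54-fold lower, with other probe sets at -0.87 and -1.04. Hspa1a, chosen after its value was known, stood at -0.45. It is nearly identical to Hspa1b, so the split of signal between them is uncertain, though both count among the 7 lower genes. The 2 genes at least 1.5-fold lower are 2 of 9, where 3.38% of all measured genes were that much lower.

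**Figure D3:**
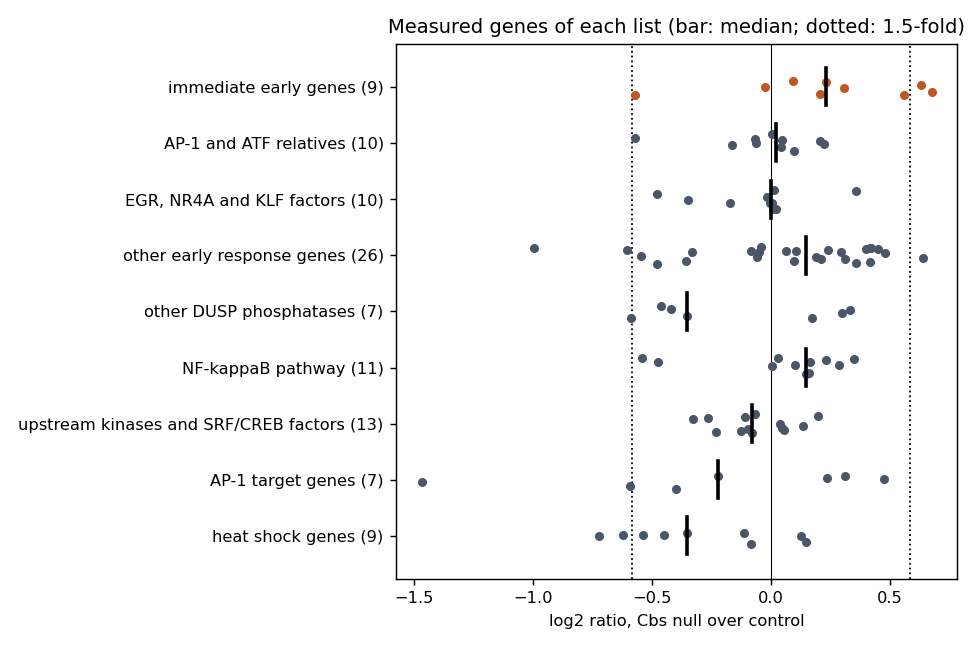
Log2 ratio of Cbs null over control for every measured gene of the 10 immediate early genes (orange) and of 8 other gene lists (dark grey), with the number measured in parentheses, the list median as a black bar and 1.5-fold as dotted lines; vertical scatter within a list has no meaning. The median of the immediate early genes is 0.23, those of the AP-1 relatives and of the EGR, NR4A and KLF factors are 0.02 and 0.00, and that of the heat shock genes is -0.35.

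Signals of some cell type markers also differed between the arrays. Smooth muscle markers had ratios below 0 in 5 of 5 genes, 4 of them by more than 1 technical SD and Acta2, at -0.07, by less, with a summed signal of 25673.9 on the control array and 20122.4 on the Cbs null array. Epithelial markers had ratios above 0 in 5 of 5, all past 1 technical SD, summing to 2840.9 and 4337.1. Macrophage markers did in 6 of 6, summing to 2514.4 and 3599.5, but C1qb (0.09) and Cd68 (0.17) were within 1 technical SD. Of all measured genes, 53.3% had a ratio above 0, and the share past 1 technical SD was not computed. No marker on these lists was at 0. Endothelial markers summed to 958.2 and 923.4, with 2 genes higher and 2 lower. Kdr, at -0.33, was lower by 2.2 technical SDs, and the others were within 1. Of 4 neutrophil markers only S100a8 was above the floor, on the Cbs null array (18.6 and 62.8). Of 4 red cell markers listed, 2 were on the array, and only Alas2 was above the floor, reading 47.5 and 78.0, a log2 ratio of 0.72. The uterine factors Hoxa10 and Hoxa11 were bright in both samples and the 4 trophoblast and embryo markers on the array were below the floor in both, while of the steroid receptor genes Esr1 lay below the floor in both samples and Pgr just above it on the control array alone. The ratio of 3' to 5' signal, a sign of RNA integrity, differed little, with Gapdh at 1.308 on the control array and 1.253 on the other and Actb at 1.95 and 2.05. The part of cell makeup, RNA quality or the time from death to lysis in the ratios of the immediate early genes was not tested, and no label gives that time. The brighter Cbs probe set read 79.8 on the control array and 42.6 on the Cbs null array, in the direction of the labels.

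The ratios of the members depended little on the processing. Dusp1 stayed between 0.66 and 0.68, Fos between 0.61 and 0.63 and Ier2 between 0.53 and 0.56 under 7 alternative settings, and 2 members were at least 1.5-fold higher in each. Jun changed sign, at 0.06, when its probe sets were averaged. The low ratio of Atf3 rests on a weak signal and was -0.05 with the floor at the 60th percentile, 120.3 signal units, which lies just below its control signal.

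**Figure D4:**
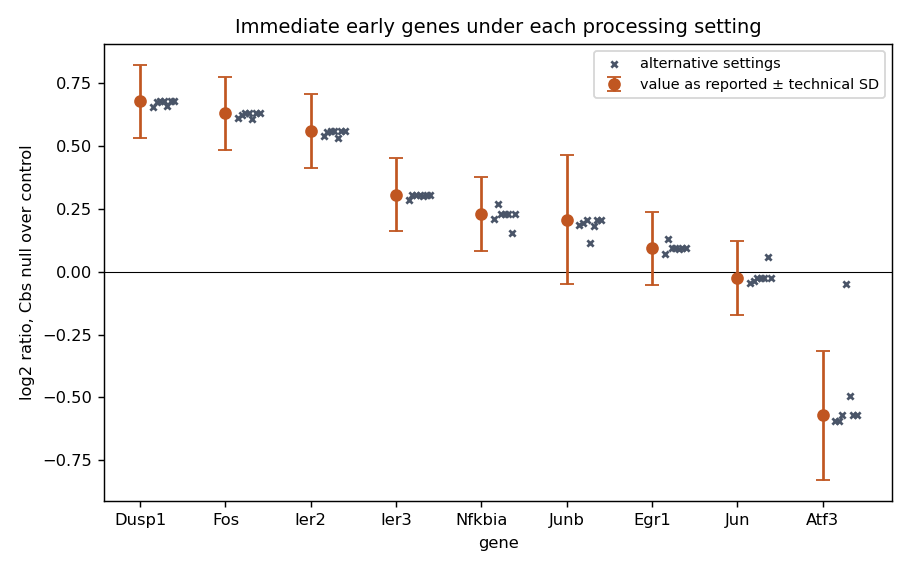
Log2 ratio of Cbs null over control for the 9 measured immediate early genes as reported (circles), with bars of 1 technical SD within the arrays (0.15 for bright and 0.26 for weak genes, not a spread between animals), and under each of 7 alternative settings (crosses). Dusp1, Fos and Ier2 stay above 0.5 in every setting, and Atf3 moves to -0.05 in 1 of them.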

How the data were processed

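RNA from 1 control and 1 Cbs null sample, 2 microg each, was labelled with biotin as cRNA per the labels' protocols. The deposited intensity of each probe set is linear. GCOS 1.4 is named in the submitters' processing notes; how probe sets were summarised and scaled is not stated there. The 2% trimmed means were 200.08 and 200.07, so the authors had scaled both arrays alike, and differences are relative to the whole array.

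Of 22690 probe sets, 64 were controls; of the others 20380 had 1 gene symbol in the platform annotation, 691 several and 1555 none. Each gene took its 1-symbol probe set of highest mean log2 signal. The technical SD came from the 2 brightest probe sets of 2757 genes. The number of arrays limits the precision. Python 3.11.15, numpy 2.4.6 and pandas 2.3.3 were used.

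The members, gene lists and settings were chosen with earlier results of these data known. Named were every member and, of each other list, up to 4 measured genes at least 1.5-fold apart, or else the 2 of highest signal. Genes outside that rule are marked as chosen after their values were known. No likeness of pattern between genes can be measured over 2 arrays. Alternatives were median centring, quantile normalization, the floor at the 20th or 60th percentile, a pseudocount of 16, the mean over probe sets, leaving out _s_at and _x_at probe sets, and other fold thresholds.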

Additional observations from a re-analysis of the deposited data

How the results depend on the processing

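No test was possible with 1 array per group, and no replicate could be left out. No paired analysis was possible because each group has a single array. A value was taken to differ from the reported one when it lay more than the technical SD of 0.22 over all signals away, and a count when it differed by more than 1.5 times. Of 149 comparisons of a member ratio, a count or a list median with its alternative, 145 stayed within these limits and 4 did not. Atf3 was -0.051 when signals were floored at the 60th percentile, which by construction takes away most of its difference. The median of the other DUSP phosphatase genes was -0.12 with signals floored at the 20th percentile, 0.17 with the 60th and 0.085 without _s_at and _x_at probe sets. With the threshold lowered to a log2 ratio of 0.32, 3 of 9 members were higher (12.2% of all measured genes were), and at 3-fold no member was apart. Fosb had a value only with the 20th percentile as the floor, 10.9 signal units, so it has none to compare with.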
